A study of Mus musculus with 3 samples.

Results

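Induced nephron progenitors are the cells of the embryonic kidney that still carry the transcription factors of the nephron progenitor pool and have begun to express the genes of the first step towards a nephron. Here they were 54 wells of the uncultured E11.5 plate, of 337 kept wells of that plate (16%, exact Clopper-Pearson 95% interval 12.3 to 20.4%) and of 837 kept wells in the series. A kept well had at least 1000 counts of nuclear genes and at most 30% mitochondrial counts, and was not labelled a control well. A member had at least 6 counts of Six2, Eya1 and Uncx together per 10000 counts, fewer than 3 counts of the epithelial genes Epcam, Cdh16 and Cldn6, and at least 2 counts of the induction genes Wnt4, Pax8 and Lhx1. Members were thus chosen by the measured counts of these 9 genes, and the values of these genes are given as a description and support nothing.

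Transcripts of sorted cells were counted by SORT-seq, a method in which cells are sorted into the wells of a 384-well plate, as a rule 1 per well. Each transcript carries a molecular identifier. The plate described here held kidney cells of C57BL/6 embryos with the LGR6-EGFP-IRES-CreERT2 allele, taken at E11.5 without culture. The 2 other plates held cells of explants with that allele and ROSA26-tdTomato. The E12.5 explants were cultured for 5 days, and the labels of the E11.5 explants give both 7 and 5 days. The sort gate and the number of embryos are not given in the sources used here. Each group is 1 plate and cells of a plate are not replicates, so there is no test, and all intervals are 95% intervals that cover counting error only.

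In the developing kidney, the tip of the ureteric bud releases Wnt9b, which acts through beta-catenin on the cap mesenchyme around it, where Six2 keeps progenitor cells undifferentiated. Progenitors that respond gather as a pretubular aggregate, express Wnt4, Fgf8, Pax8 and Lhx1, and then pass from mesenchyme to epithelium as a renal vesicle. Notch and BMP ligands are among the genes that mark this transition, and Cited1 marks the least advanced progenitors.

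The comparison group was 66 uninduced wells of the same plate that met the progenitor and epithelial conditions with at most 1 count of the induction genes, 38 of them with none. Members were deeper, with 1412 to 85368 counts and a median of 11700 against a median of 6265 in uninduced wells. Each member was therefore paired with an uninduced well within 1.5-fold of its depth, which left 47 wells in each group, with medians of 11619 and 9497 counts. Levels below are counts per 1000000 (CPM) of the counts summed over these 47 wells unless another group is named. The members also lay elsewhere on the plate, with 33 of 47 matched members and 20 of 47 matched uninduced wells in even columns, and 38 and 28 of 47 in columns 1 to 12. Mitochondrial shares had medians of 7.26% and 9.08%. The part of depth, plate position and mitochondrial share in the differences below was not tested beyond the alternatives quoted.

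**Figure D1:**
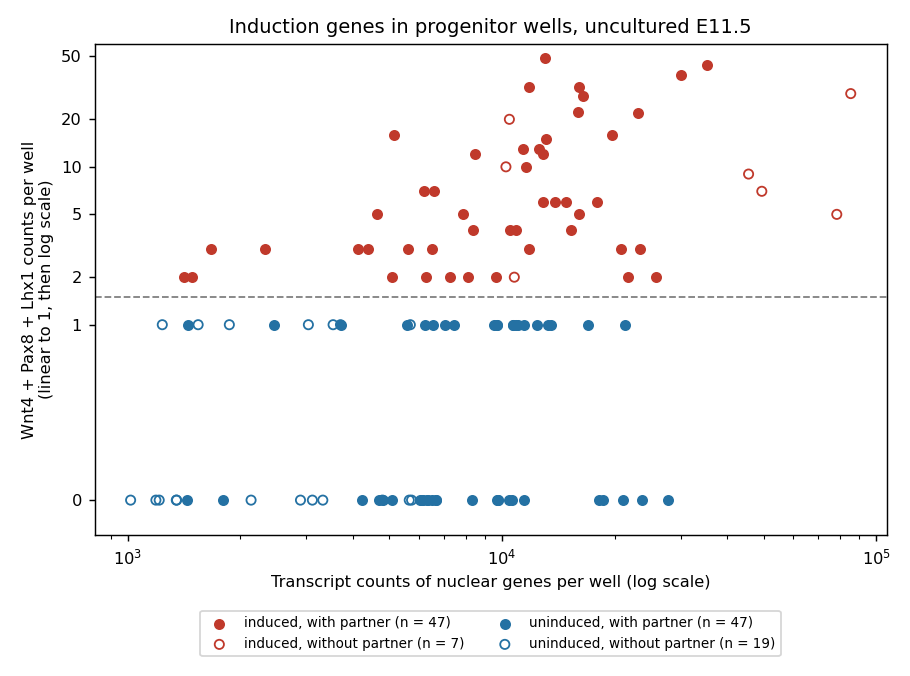
Each point is 1 of the 120 progenitor wells, with its nuclear counts on the x axis (log scale) and its counts of Wnt4, Pax8 and Lhx1 on the y axis (linear to 1, then log scale), in red for induced and blue for uninduced wells, filled where the well has a depth-matched partner. The dashed line is the limit between 1 and 2 counts that chose the groups, and 10 members lie on the first step above it.

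Among the genes of the rule, Wnt4, a ligand needed for the transition to epithelium, was found in 49 of 54 members, and the transcription factors Pax8 and Lhx1 in 48 and 21. Wnt4 per well ran from 0 to 13.5 per 10000 counts with a median of 2.59, Pax8 from 0 to 21.4 with a median of 2.36, and Lhx1 from 0 to 17.0 with a median of 0. Lhx1 was thus the gene that most members lacked. All 3 were present together in 18 members and Wnt4 with Pax8 alone in 25, while no member had Lhx1 alone. Near the limit, 10 members had a sum of 2 and 9 a sum of 3, and 28 wells just outside had a sum of 1. On the progenitor limit, 6 members lay between 6 and 7 per 10000, and 7 kept wells that met the other 2 conditions lay between 5 and 6. On the epithelial limit, 3 members had 2 counts, and 1 kept well that met the other 2 conditions had 3.

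Six2 was found in 47, Eya1 in 47 and Uncx in 53 of 54 members, which the rule sets, so the progenitor part of the label cannot be checked on them. Six2 stood at 594 CPM in matched members and 671 CPM in matched uninduced wells, a ratio of 0.89 (0.76 to 1.04), and Eya1 at 372 and 386 CPM. Uncx, a homeobox gene of the cap mesenchyme, stood at 728 and 490 CPM, a ratio of 1.49 (1.26 to 1.76). Of the genes that define other cells, the endothelial Kdr, Emcn and Esam and the ureteric Wnt9b, Krt19, Tfap2a and Emx1 had no count in either matched group. The 12 ureteric genes in the table summed to 167 CPM in matched members and 154 CPM in matched uninduced wells, mostly from Hoxb7, Sox9 and Etv5. The 10 neural genes summed to 149 and 108 CPM, and 1 member held 39 of the 85 counts, without which members stood at 83.8 CPM. The 10 leukocyte genes summed to 61.5 and 159 CPM, and 1 uninduced well held 47 of the 72 counts, without which uninduced wells stood at 55.7 CPM. The groups were thus near each other in these lists once single wells were left out. The 20 stromal genes summed to 1921 and 2630 CPM, against 7743 CPM in the 194 other kept wells. In members 1 well held 163.1 of the 1094.2 stromal counts. Without the top well of each group the stromal sums were 1700 and 2482 CPM, so members stayed lower. Per matched well the stromal sum ran from 3.89 to 120 per 10000 in members and from 8.97 to 63.2 in uninduced wells, so the ranges overlapped.

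Wells of other cells also held induction counts. Of 17 wells with at least 5 counts of the macrophage genes C1qa, C1qb, C1qc, Lyz2 and Ptprc, 3 also had at least 2 counts of the induction genes (17.6%, 3.80 to 43.4%), as did 35 of 194 other kept wells (18.0%). The other kept wells are those in neither the progenitor nor the epithelial group. The macrophage-marker wells were drawn from all kept wells, so they can overlap the other wells and the progenitor wells. They had a median depth of 6312 counts. When each well was thinned to 2000 counts, at least 2 induction counts were left in 24 of 51 members (47.1%), with 3 members too shallow to enter. They were left in 9 of 23 epithelial wells (39.1%), 1 of 16 macrophage-marker wells and 7 of 185 other wells (3.78%). Members were chosen by these same counts and the other wells were not, so the contrast is a description. Of the 54 members, 19 had a sum of at least 10, against 10 with a sum of 2. How many of the members at 2 or 3 counts carry free transcripts was not tested.

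Over all genes with at least 20 counts in the 94 matched wells, 303 of 7841 (3.86%) were at least 2-fold higher in members and 239 (3.05%) at least 2-fold lower, with a median log2 ratio of 0.02. All genes come from the wells that the rule chose, and a gene passes this filter more easily through the group where it is high, so counts in gene lists are descriptions to be read against these shares.

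Of 20 other genes of early nephron induction, 11 had 20 counts, and 8 of these were at least 2-fold higher in members and none lower, with a median log2 ratio of 2.02. This list, like those below, was chosen with earlier results of these data known, so its counts are no independent support. The median log2 ratio of this list was 0.63 when wells were thinned to 2000 counts. Bmp2, a BMP ligand, led the list at 135 CPM in members and 4.41 CPM in uninduced wells, a ratio of 30.6 (8.20 to 258), with counts in 20 and 2 of 47 wells. Over all 54 members its level ran from 0 to 17.2 per 10000 with a median of 0, so a minority of members held it. Bmp2 was also found in macrophage-marker wells, at 116 CPM, and the part of their transcripts in its level in members was not tested. Greb1, first described as an oestrogen-responsive gene, stood at 132 and 11.0 CPM, a ratio of 11.9 (4.90 to 37.8), with counts in 27 and 4 wells, and had no count in macrophage-marker wells. Frzb, a secreted Wnt antagonist, was 9.15-fold higher (3.34 to 35).

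Jag1, a Notch ligand, stood at 96.6 CPM in members and 15.4 CPM in uninduced wells, a ratio of 6.25 (2.84 to 16.3), and Fgf8, a growth factor that aggregates need to survive, at 40.4 and 6.62 CPM, a ratio of 6.10 (1.84 to 31.8). Ccnd1, which encodes cyclin D1, had the most counts of the 8 higher genes, at 474 and 117 CPM, a ratio of 4.05 (3.01 to 5.55). Ccnd1 per well ran from 0 to 26.3 per 10000 with a median of 1.89 in the 54 members and from 0 to 14.8 with a median of 0.235 in the 66 uninduced wells, so the groups overlapped widely. Cdh4, a cadherin of aggregates and renal vesicles, was 2.03-fold higher (1.34 to 3.13). Bmper at 0.80, Sox4 at 0.99 and Sox11 at 1.05 times the uninduced level were the 3 genes of this list within 2-fold.

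Of 18 genes known as targets of canonical Wnt signalling, 8 had 20 counts, and 5 were at least 2-fold higher, with none lower and a median log2 ratio of 1.24. Besides Ccnd1 and Fgf8, which are on both lists, these were Tcf7 at 4.14-fold (1.56 to 13.8), Lef1 at 2.39-fold (1.18 to 5.24) and Nkd1 at 2.35-fold (1.37 to 4.18). Tcf7 and Lef1 encode DNA-binding partners of beta-catenin, and Nkd1 a feedback inhibitor. Over all matched wells the log2 ratio of Lef1 was 1.26, and 0.10 within odd and 2.66 within even plate columns. Axin2, the general feedback target, stood at 1.27 times the uninduced level (0.543 to 3.14), Znrf3 at 1.69 and Myc at 0.76. Of 14 measured Wnt ligands, receptors and effectors none was 2-fold higher, and the median log2 ratio was -0.20. Rspo3, which encodes a ligand of the Lgr receptors, was 3.09-fold lower, at 45.7 and 141 CPM. The log2 ratio of Rspo3 was -1.63, and -4.13 within odd and -0.95 within even columns. Tcf7l1 and Tcf7l2 stood at 0.69 (0.572 to 0.829) and 0.63 (0.454 to 0.886) times the uninduced level, on the other side of 1 from Tcf7 and Lef1.

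Of 11 measured genes of Notch signalling, 4 were at least 2-fold higher and none lower, with a median log2 ratio of 0.58. Beside Jag1 these were the receptor Notch1 at 3.80-fold (1.83 to 8.87) and the target genes Hey1 at 4.02-fold (2.41 to 7.09) and Heyl at 2.04-fold (1.24 to 3.46). By setting, the log2 ratio of Notch1 was 1.93, and 0.32 in thinned wells and 0.55 with every well weighted equally. Of 12 measured BMP genes, 3 were at least 2-fold higher, namely Bmp2 and the inhibitory Smad6 (2.74-fold, 1.27 to 6.55) and Smad7 (2.12-fold, 1.06 to 4.53). The other BMP ligands measured did not share the difference of Bmp2, with Bmp4 at 1.29 (0.668 to 2.58) and Bmp7 at 1.00 (0.708 to 1.42) times the uninduced level. Of 15 measured genes of an FGF list that leaves out Fgf8, given above, 1 was at least 2-fold higher: Spry1, a feedback inhibitor of receptor tyrosine kinases, at 2.12-fold (1.54 to 2.96). The median log2 ratio of that list was -0.07.

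**Figure D2:**
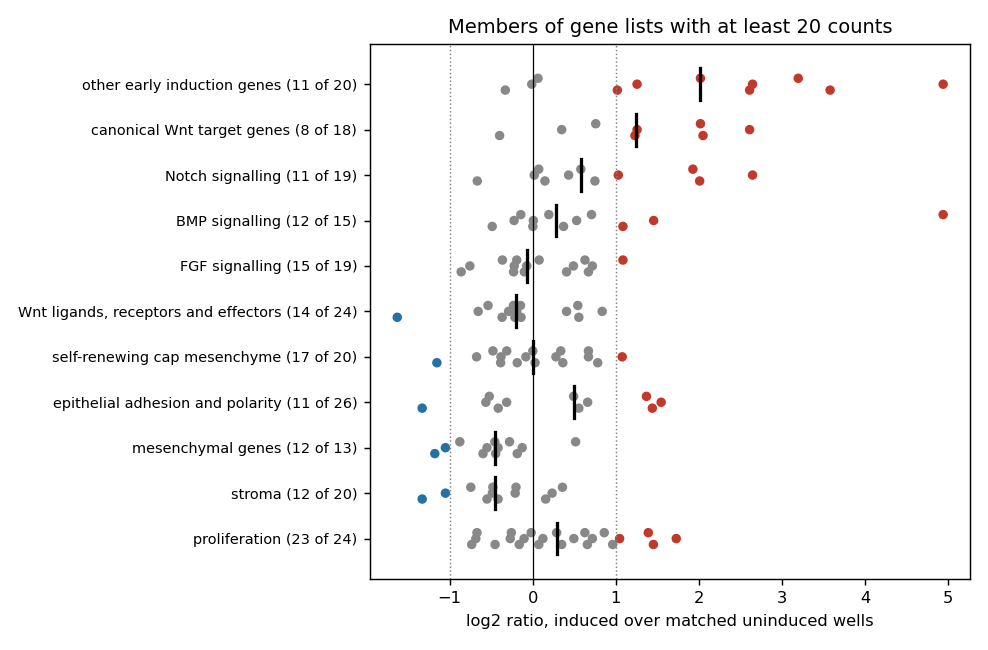
Each point is a gene with at least 20 counts in the matched wells, placed by its log2 ratio of members over uninduced wells, in red at or above 1 and blue at or below -1, with the list's median as a black bar and the number of measured of listed genes in parentheses. The early induction list has its median at 2.02 and the stromal list at -0.45, against 0.02 over all genes.

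The self-renewing cap mesenchyme list stood level between the groups, with 1 of 17 measured genes at least 2-fold higher, 1 at least 2-fold lower and a median log2 ratio of 0.00. Cited1, the marker of the least advanced progenitors, was the lower one, at 68.5 and 152 CPM, a ratio of 0.45 (0.296 to 0.676). The log2 ratio of Cited1 was -1.15 over all matched wells, and -2.19 within odd columns, -0.06 within even columns and -0.52 within columns 1 to 12. Cited1 was found in 14 of 47 matched members (29.8%, 17.3 to 44.9%) and 21 of 47 matched uninduced wells (44.7%, 30.2 to 59.9%), and the intervals of the shares overlapped. Gdnf, the ligand that draws the ureteric bud, was 2.11-fold higher (1.24 to 3.73), and its log2 ratio was 0.59 without wells over 3 times the median depth. Pax2, which is expressed in progenitors and in the nephron epithelium after them, stood at 596 and 346 CPM, 1.72-fold higher (1.42 to 2.09). Osr1, Meox1, Crym and Eya4 stood at 0.77, 0.72, 0.81 and 0.63 times the uninduced level.

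Of 26 genes of epithelial adhesion and polarity, 11 had 20 counts, and Cldn4, Crb3, Krt18 and Krt19 had no count in either matched group. The 3 that were at least 2-fold higher were the laminin chains Lamb1 (2.71-fold, 1.81 to 4.16) and Lamc1 (2.58-fold, 1.81 to 3.76) and the apical membrane protein Prom1 (2.92-fold, 1.37 to 6.94). Lama1, the laminin alpha chain of early tubule basement membrane, stood at 0.40 times the uninduced level (0.147 to 0.986), whereas Lama4, another alpha chain, was among the genes with the highest ratio. The 12 measured mesenchymal genes had a median log2 ratio of -0.45, with Snai2 at 0.44 (0.243 to 0.785) and Col3a1 at 0.48 (0.373 to 0.624) at least 2-fold lower. Over all matched wells the log2 ratio of Col3a1 was -1.05, and -0.31 within even columns and -0.20 without depth matching, where the log2 ratio of Snai2 was -0.19. Vim stood at 0.92 and Cdh11 at 0.88, and Ncam1, an adhesion molecule of condensed mesenchyme, at 1.43 (1.19 to 1.72).

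Of 23 measured proliferation genes, 4 were at least 2-fold higher and none lower, with a median log2 ratio of 0.29. The 4 encode proteins of mitosis: Ccnb1 at 321 and 97.1 CPM (3.31-fold, 2.37 to 4.71), Aurkb at 2.74-fold, Cdc20 at 2.62-fold and Ccnb2 at 2.06-fold. The log2 ratio of Aurkb was -0.48 within even columns, and Ccnb2 was level in thinned wells. Of the genes of DNA replication and its start, Ccne1 stood at 1.55 times the uninduced level (1.01 to 2.41), Gins2 at 1.09, Rrm2 at 1.05 and Pcna at 0.93, and Mcm2, Mcm3, Mcm5 and Mcm6 at 0.60, 0.73, 0.83 and 0.84. Cdkn1c, a cell cycle inhibitor, stood at 886 and 1423 CPM, a ratio of 0.62 (0.552 to 0.70). None of 9 measured immediate early genes and none of 12 measured hypoxia and glycolysis genes differed by 2-fold, with medians of 0.08 and 0.18.

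By the rule for named genes, the 15 with the highest ratio held Bmp2, Greb1, Frzb, Jag1 and Ccnd1, described above, and 10 others. Lama4 stood at 176 and 26.5 CPM, a ratio of 6.63 (3.63 to 13.3), Emid1, an extracellular matrix protein, at 156 and 26.5 CPM, a ratio of 5.90 (3.22 to 11.9), and Trim2, a ubiquitin ligase, at 204 and 41.9 CPM, a ratio of 4.86 (2.98 to 8.36). Pcdh19, a protocadherin, was 5.65-fold higher (2.90 to 12.3), and Scube3, a secreted protein, 9.82-fold higher (3.11 to 49.8). These 5 genes were each present in 21 to 30 of 47 members. Arhgap19 (19.1-fold, 3.12 to 786) and Plekhg3 (18.3-fold, 2.97 to 754) had 1 count in uninduced wells, and Arhgap19 was level in thinned wells. Trim16 was 10.3-fold higher (2.59 to 90) and the noncoding RMST_1 6.53-fold higher (2.58 to 21.2). Lhx1os had no count in uninduced wells against 40.4 CPM in members, at least 6.10-fold higher with a lower limit of 4.58. By its name it is the opposite-strand transcript of Lhx1, a gene of the rule, so its reads may be shared with Lhx1.

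Of the 15 genes with the lowest ratio, Robo2, a receptor for Slit proteins, had the most counts, at 297 CPM in members and 663 CPM in uninduced wells, 2.23-fold lower. Robo2 per well ran from 0 to 14 per 10000 with a median of 2.38 in members and from 0 to 27.9 with a median of 4.82 in uninduced wells, so most of the range was shared. The guidance ligand Sema3d was 3.67-fold lower, the atypical cadherin Fat3 3.77-fold and the integrin chain Itga4 5.02-fold. Dcx, a microtubule-associated protein best known in migrating neurons, was 4.05-fold lower, at 31.6 and 128 CPM, with counts in 10 and 23 wells. Tgfbi, a matrix protein, was 2.28-fold lower, at 221 and 505 CPM. Stc1, a secreted glycoprotein, was 3.87-fold lower, Mxra8 4.75-fold, Moxd1 3.21-fold and the retinol dehydrogenase Rdh14 6.28-fold. The others were Rspo3, given above, and Actn3 (3.30-fold), Tmem37 (4.61-fold), Rnf150 (4.31-fold) and 6030408B16Rik (5.53-fold).

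**Figure D3:**
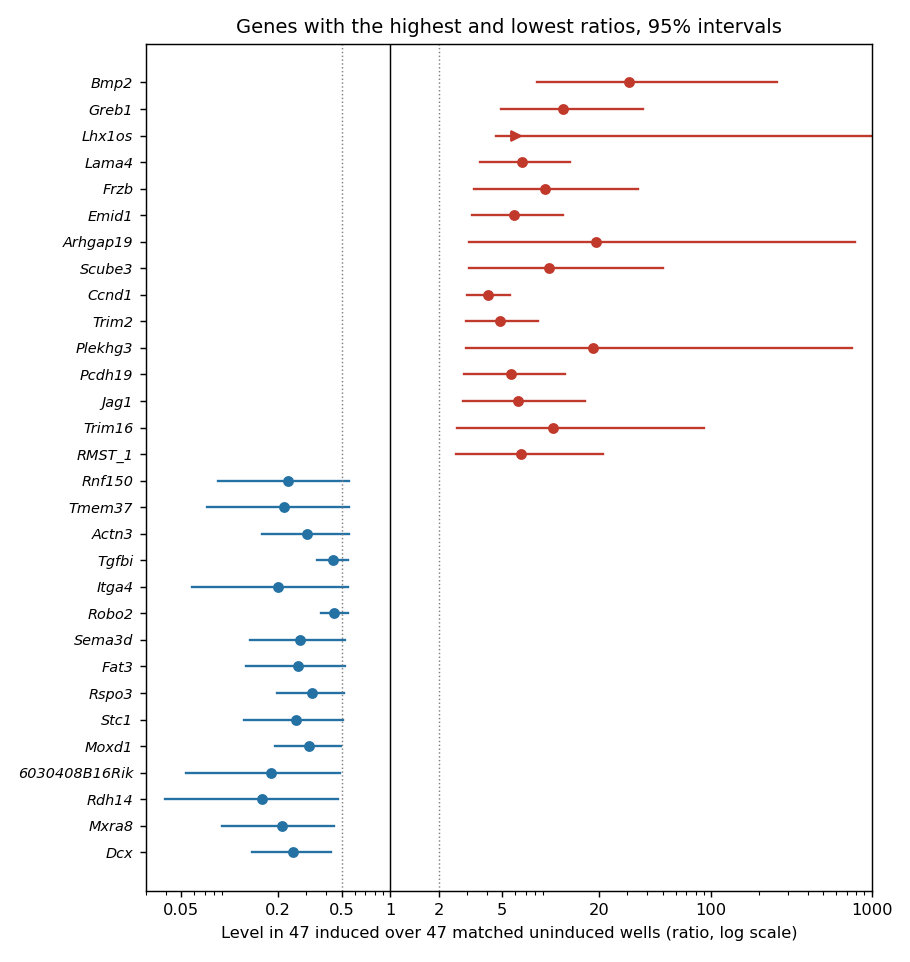
Ratios of CPM in 47 members over 47 depth-matched uninduced wells on a log axis, for the 15 genes with the highest ratio (red) and the 15 with the lowest (blue), with 95% counting intervals as lines and dotted lines at 2-fold. The arrowhead for Lhx1os is a lower bound of 6.10, and Ccnd1 has the narrowest interval of the red genes.

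Members varied among themselves. They were split into 3 groups of 18 wells, low, middle and high, by the level of the induction genes. These levels ran from 0.638 to 3.66, from 3.81 to 10.7 and from 10.8 to 37.8 per 10000 counts. The rule uses counts and not this level, which ran from 0 to 8.08 in uninduced wells (8.08 in well I4, with 1237.3 counts). The whole low group and part of the middle group thus lay within the range of uninduced wells. The low group was deeper, with a median of 17020 counts against 10376 and 10914, and held 8 of the 11 members over 3 times the plate's median depth. Levels over these groups are therefore given without these 11 wells, which leaves 10, 17 and 16 wells. The groups are ranges of a level and not cell types, and 11 and 12 wells lay within 1.25-fold of the lower and the upper limit between them. A sum of 2 or 3 counts is a high level in a shallow well. By such sums wells N14, G3, C8 and J18, with 1412.1, 1481.5, 1665.6 and 2329.7 counts, lay in the high group. The absence of a gene in such shallow wells says little.

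Over the low, middle and high group, Six2 stood at 922 (753 to 1115), 675 (556 to 811) and 201 CPM (133 to 290), a span that the ratio of 0.89 over all matched members does not show. In the high group with deep wells included, Six2 was at 298 CPM, of which 1 well held 49.3%. Osr1, an early progenitor transcription factor, stood at 149, 107 and 14.3 CPM and Cited1 at 105, 53.7 and 0 CPM. Cited1 had no count in any of the 18 wells of the high group, the shallow wells among them. Robo2 stood at 412, 281 and 86.1 CPM and Cdkn1c at 1221, 597 and 351 CPM. The progenitor genes did not all go this way: Pax2 stood at 474, 615 and 883 CPM, Uncx at 491, 783 and 906 CPM and Wt1 at 886, 951 and 1327 CPM. Six2 and Uncx are genes of the rule, and their values over these groups are a description.

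Of the 15 genes with the highest ratio, 14 stood highest in the high group, with Plekhg3 as the exception, and of the 15 with the lowest ratio, 10 stood lowest there and Itga4 was at 0 in both the middle and the high group. These 30 genes were chosen on the same members, so the counts are a description. Jag1 was at 8.77, 53.7 and 280 CPM (199 to 382) over the low, middle and high group, and Ccnd1 at 167, 251 and 1015 CPM (858 to 1200). Lama4 was at 105, 107 and 459 CPM (353 to 586) and Bmp2 at 78.9, 65.7 and 351 CPM (260 to 465). Greb1 was at 35.1, 137 and 222 CPM, Emid1 at 87.7, 143 and 287 CPM and Trim2 at 132, 293 and 294 CPM. For Lama4, Bmp2, Jag1 and Ccnd1 the interval of the high group lay above those of the low and the middle group. These intervals leave out variation between wells, which was wide for Ccnd1 within the high group. Wells E6, B2, H10 and H23 held 42.2, 24.1, 23.1 and 22.1 counts of Ccnd1. Wells K10, K14 and L18 held none, at depths of 5142.2, 11368.3 and 15927.9 counts. The pooled level of Ccnd1 is thus not that of a typical well of the high group. Fgf8 at 17.5, 65.7 and 28.7 CPM and Lef1 at 26.3, 89.6 and 78.9 CPM had their highest value in the middle group, on few counts: Fgf8 was found in 9 wells there and in 4 wells of each other group. Ccnb1, at 447, 287 and 280 CPM, did not follow the induction level.

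Few wells held genes of later nephron segments. Pou3f3, a factor of distal tubule fate, had counts in 0, 2 and 3 wells of the low, middle and high group. It had no count in any of the 66 uninduced wells. In the high group with all 18 wells, 1 well held 66.7% of its counts. Osr2 was the only proximal tubule gene of 9 with 20 counts, at 50.9 and 8.82 CPM (5.77-fold, 2.03 to 22.6).

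**Figure D4:**
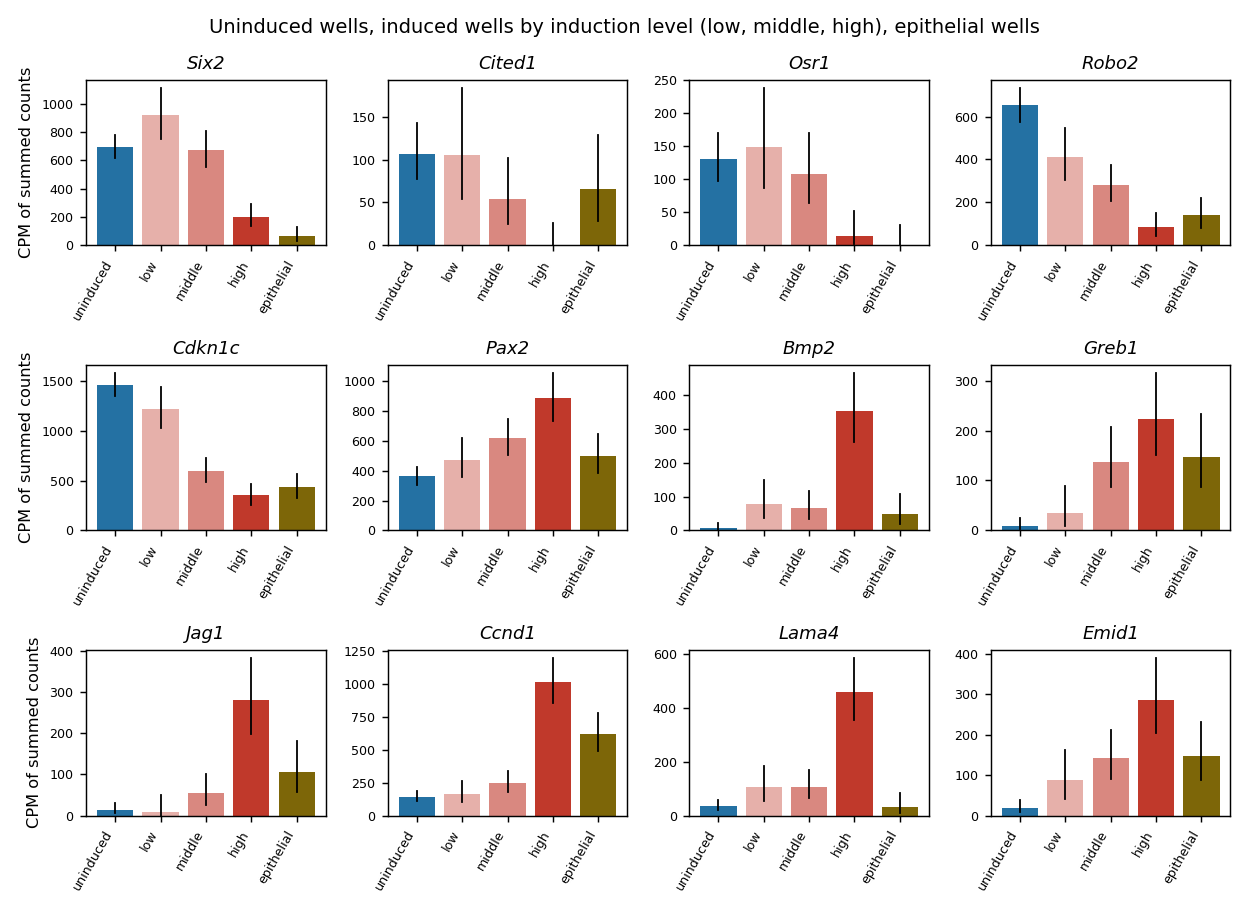
CPM of summed counts (bars, each axis from 0) with exact Poisson 95% intervals in uninduced wells, in the low, middle and high group of members by induction level and in epithelial wells, all without wells over 3 times the median depth. Of the 3 groups of members, Six2, Cited1, Osr1, Robo2 and Cdkn1c are lowest in the high group, where Pax2, Bmp2, Greb1, Jag1, Ccnd1, Lama4 and Emid1 are highest.

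The epithelial wells, with at least 3 counts of Epcam, Cdh16 and Cldn6, are the wells of this plate most like the members in these genes, and 13 of 23 passed the progenitor limit. They were deeper, with a median of 16646 counts and 10 wells over 3 times the plate's median depth, and wells that hold more than 1 cell cannot be told apart from single cells here. Among them 1 well held 28.8% of their counts, so levels are given without the wells over 3 times the median depth, for 13 epithelial wells and 43 members. Wnt4 stood at 123 CPM in the epithelial wells and 352 CPM in members, and Pax8 at 418 and 432 CPM. Ccnd1 was at 623 CPM (490 to 778) and 481 CPM (416 to 551), Greb1 at 147 and 138 CPM and Jag1 at 106 and 116 CPM, with overlapping intervals for each. Lama4 was at 32.7 CPM (8.92 to 83.8) in epithelial wells and 223 CPM (180 to 273) in members, and Bmp2 at 49.1 CPM (18.0 to 107) and 164 CPM (128 to 207). Pou3f3 was at 278 CPM (193 to 389) and 21.4 CPM (9.78 to 40.6). Without the deep wells, Bmp2 and Lama4 were thus lower in the epithelial wells than in members and Pou3f3 higher, beyond counting error. With the deep wells kept, Wnt4 was at 256 and 263 CPM, Lama4 at 110 and 155 CPM and Pou3f3 at 33.2 and 10.5 CPM, so these differences were smaller.

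Lgr6, the receptor that the series is named for, had 1 count each in 7 of 54 members (13%, 5.37 to 24.9%), in 1 of 66 uninduced wells (1.52%, 0.0384 to 8.16%) and in 2 of all 283 other kept wells (0.707%, 0.0857 to 2.53%). In depth-matched wells the numbers were 6 and 1 of 47, a ratio of 4.78 with an interval from 0.579 to 220. The interval includes 1, so a difference was not detectable at this depth once depth was matched. The EGFP_IRES_Cre sequence of the allele was found in 5 of 54 members, 2 of 66 uninduced wells and 5 of 283 other wells. The Lgr6 wells were spread over the low, middle and high group, with 4, 1 and 2 wells.

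The same rule found 7 of 200 kept wells on the cultured E12.5 plate (3.50%, 1.42 to 7.08%) and 4 of 300 on the cultured E11.5 plate (1.33%, 0.364 to 3.38%), with 4 uninduced wells on each. Culture and the added ROSA26-tdTomato allele differ together between the uncultured plate and both others, and cannot be told apart. On the E12.5 plate Ccnd1 stood at 500 CPM in the 7 wells and 31.2 CPM in the 4, and 1 well held 39.2 of its 61.2 counts, 22.1 of 24.1 counts of Lhx1 and all 3 of Bmp2. On the E11.5 plate Lhx1 had no count and 1 well held 21.1 of 28.1 counts of Wnt4. These wells are too few, and lean too much on 1 well each, for the genes above to be compared between plates.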

How the data were processed

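Per the labels' protocols, kidneys and explants were dissociated with collagenase and cells were sorted into 384-well plates for SORT-seq. Per the submitters' processing notes, STAR 2.6.1a, featureCounts 1.5.2 and GRCm38.p5 are listed, with no settings. The authors deposited 1 table per plate that holds, for each gene and well, expected counts of transcripts corrected for repeated identifiers, and 1.90% of the values above 0 of the uncultured plate were not whole. Whole counts had been assumed in the design. No count model was fitted, and the deposited expected counts were used as they are.

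All 3 tables name the same 384 wells and give no cell barcodes. Mitochondrial genes, spike-ins and added sequences were left out of totals. The 15 control wells of the uncultured plate had a median of 632 counts, and 4.21% of its counts lay in no known well. No doublet caller was run. The 32 kept wells with more than 3 times the median count were left out as an alternative.

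Members and lists were chosen with earlier results of these data known. Members were paired, deepest first, with the nearest unused uninduced well within 1.5-fold. CPM have exact Poisson intervals and ratios Clopper-Pearson intervals. A fold against 0 uses a floor of 3 counts over the group and is written "at least". Genes named were the 9 of the rule, members of 26 lists, and the 15 highest and 15 lowest ratios by the interval bound nearest 1, without genes that had over 25% of counts in 1 well or were found in fewer than 8 wells. Calculation of the ratios was tested on simulated data for the matched comparison, over 7713 genes. There, 100% of 200 genes changed 4-fold were recovered and 3.07% of unchanged genes passed 2-fold. The 3.07% is not split by direction, whereas the observed shares of 3.86% and 3.05% are each for 1 direction. The changed genes were drawn only from genes with at least 50 counts over the matched wells. Recovery of genes below 50 counts was therefore not examined, and the 100% is no rate for genes near 20 counts. The part of variation between wells was not tested. Alternatives changed the matching, depth, well weights, limits of the rule, count minimum and plate columns (14 in all). Intervals used scipy 1.17.1, tables pandas 2.3.3 with numpy 2.4.6 and figures matplotlib 3.10.9, under python 3.11.15.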

Additional observations from a re-analysis of the deposited data

How the results depend on the processing

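No paired analysis was possible because the labels give 1 plate per group and no replicate numbers, and wells were paired by depth alone. Over the alternatives, the number of induced wells went from 54 to 25 when every kept well was thinned to 2000 counts, and to 35 both with an induction sum of at least 4 and with progenitor genes at 12 per 10000. Epithelial wells went from 23 to 12 with a limit of 6 counts. Genes at least 2-fold higher numbered 303, and 106 in thinned wells, 96 with a minimum of 50 counts and 887 with 5 counts. Genes at least 2-fold lower numbered 239, and 90 in thinned wells, 54 with 50 counts, 901 with 5 counts, 393 with every well weighted equally and 134 within even columns. The median log2 ratio of other early induction genes, 2.02, was 0.63 in thinned wells and 2.99 with progenitor genes at 12 per 10000. The cause of these shifts was not tested, beyond the number of genes measured, which was 2025 in thinned wells, 4608 with 50 counts and 11452 with 5 counts.

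Of 414 values of the 30 named genes under the alternatives, none had the opposite sign and 1 was exactly 0 (Arhgap19 in thinned wells). These genes were chosen for extreme ratios, and the alternatives reuse largely the same wells. A kept sign was thus likely from the start and is no independent support. Of the values of 201 listed genes, 2501 stayed within the counting interval, 300 moved beyond it and 4 were classed as reversed. A gene with a log2 ratio near 0, such as Bmp7 at 0.002, can change sign within its interval. The 4 are therefore not a count of all changes of sign. The log2 ratio of Aurkb was -0.48 within even columns, the log2 ratio of C1qc was 1.99 with progenitor genes at 12 per 10000 and 1.25 within even columns, and the log2 ratio of Ntn1 was 0.088 without depth matching. The alternative within plate columns 1 to 12 was chosen after seeing the data. Matched members had a median of 11619 counts, and levels are sums over wells. Among the 15 highest genes, 1 well held at most 24.4% of the counts of members (RMST_1). Among the 15 lowest, 1 well held at most 25% of the counts of uninduced wells (Itga4). The rule for named genes had left out genes over 25%.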
